A study of Mus musculus with 12 samples.

Results

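The clustered protocadherins are 3 neighbouring gene arrays on mouse chromosome 18, named alpha, beta and gamma. They were taken as every row of the expression table that lies on chromosome 18 and carries a name starting with Pcdha, Pcdhb or Pcdhg. The rule found 58 of 14899 rows, which are 14 alpha, 22 beta and 21 gamma isoforms and 1 row, Pcdha4-g, that runs from alpha to gamma. The cells were hybrids of the strains 129Sv and Cast/EiJ, so a sequence difference between the strains tells which parental allele a read came from. F1-21.6, an XX line, and F1-23, an XY line, are the 2 lines of embryonic stem (ES) cells, with 1 library each, grown with LIF on inactivated fibroblast feeders. Clonal lines of neural progenitor cells (NPC) derived from them numbered 8, with 1 library each in the expression table. They were 4 of XX cells, named E1.2, G4, C2 and 129, and 4 of XY cells, named mG3, mB4, mE6 and mC3. Repeat libraries of C2 and mC3 are not in that table. A clone is the progeny of 1 cell, so its RNA shows which isoforms and alleles that cell line used. Clone 129 shares its name with the 129 allele and is called XX clone 129 throughout.

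Clustered protocadherins are cadherin-like adhesion proteins of the cell surface that give neurons an individual surface identity. Each alpha and gamma isoform has its own promoter and its own large variable exon, which codes for the outer part of the protein and is spliced to small constant exons shared by the whole array. Beta isoforms are single-exon genes with no shared exon. Single neurons are known to express a few alpha, beta and gamma a and b isoforms chosen separately on each chromosome, while the C-type isoforms (alpha c1 and c2, gamma c3 to c5) are known to be expressed in most neurons from both chromosomes. Binding of CTCF and cohesin and methylation of the promoters are known to take part in this choice.

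On the mouse build mm9 the alpha rows started at chr18:37089939-37347311 with Pcdha1, the longest of them, and the beta genes lay from Pcdhb1 at chr18:37424652-37427108 to Pcdhb22 at chr18:37678007-37681073. The gamma rows began with Pcdhga1 at chr18:37821599-37828758, its variable part, and ended at base 38001526. The alpha and gamma rows were found to be nested. Each row's counts cover everything from its own start to the shared constant exons, and so include the variable exons of all isoforms further along. The count of Pcdhgc5, the last gamma row, is therefore contained in the count of every gamma row. Taking each row minus the next gave a count for the stretch between neighbouring starts, which holds 1 variable exon. No such difference was negative in any of the 10 libraries, for all counts or for the 129 counts. FPKM values, in which reads are scaled to transcript length and library size, were given per isoform and are not nested. Below, levels are in FPKM or counts scaled to library size (CPM), and alleles of alpha and gamma isoforms are read from these stretches. Over 30 stretches, FPKM and stretch counts had a Spearman correlation of 0.667 in mB4 and 0.827 to 0.925 in the other clones. They did not always order isoforms alike. In C2, Pcdhgb4 had 18.4 FPKM and 4.84 CPM by its stretch, and Pcdhga6 14.5 FPKM and 25.3 CPM. The leading gamma a or b isoform of each NPC clone was the same by both. A row between Pcdhgb1 and Pcdhgb2 carries no gene name. It lies where the RefSeq order of genes (GRCm38.p6) has Pcdhga4, and it is not counted among the isoforms.

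Total counts per library ran from 61375911 to 119266777. Markers of neural progenitors were summed at 3218 to 5927 FPKM in the NPC clones and 390 to 440 FPKM in the ES lines, with 7 of 10 higher and 1 lower in NPC (edgeR, background 33.3% and 29.7% of all rows). Fabp7 and Olig2 had no count in either ES line. Since the table keeps only rows read in some NPC clone, their direction was fixed and supports nothing. Fibroblast markers were summed at 264 and 275 FPKM in the ES lines and at 10.8 to 147 FPKM in the NPC clones, with E1.2 highest. Their part in the ES values was not tested. Neuron markers stayed at 9.34 to 25.4 FPKM in the NPC clones and 24.3 to 71.2 FPKM in the ES lines.

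The cluster was nearly silent in ES cells apart from gamma, and expressed in every NPC clone. Summed over all isoforms, it stood at 10.1 FPKM in the XX ES line and 15.6 FPKM in the XY ES line, against 240 FPKM in XX clone 129 and 515 FPKM in mB4, the lowest and highest NPC clones. Beta genes went from 0.206 and 0.476 FPKM in the ES lines to 90.3 ± 22.5 FPKM in NPC (SD, n = 8 clones), with a range of 51.8 (mG3) to 115 FPKM (XX clone 129). Gamma a and b isoforms had 5.79 and 8.95 FPKM in ES cells and 12.8 to 95.8 FPKM in NPC. Gamma c isoforms had 3.93 and 5.99 FPKM in ES cells and 99.5 to 329 FPKM in NPC. In bulk RNA, fewer expressing cells and less RNA per cell cannot be told apart.

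**Figure D1:**
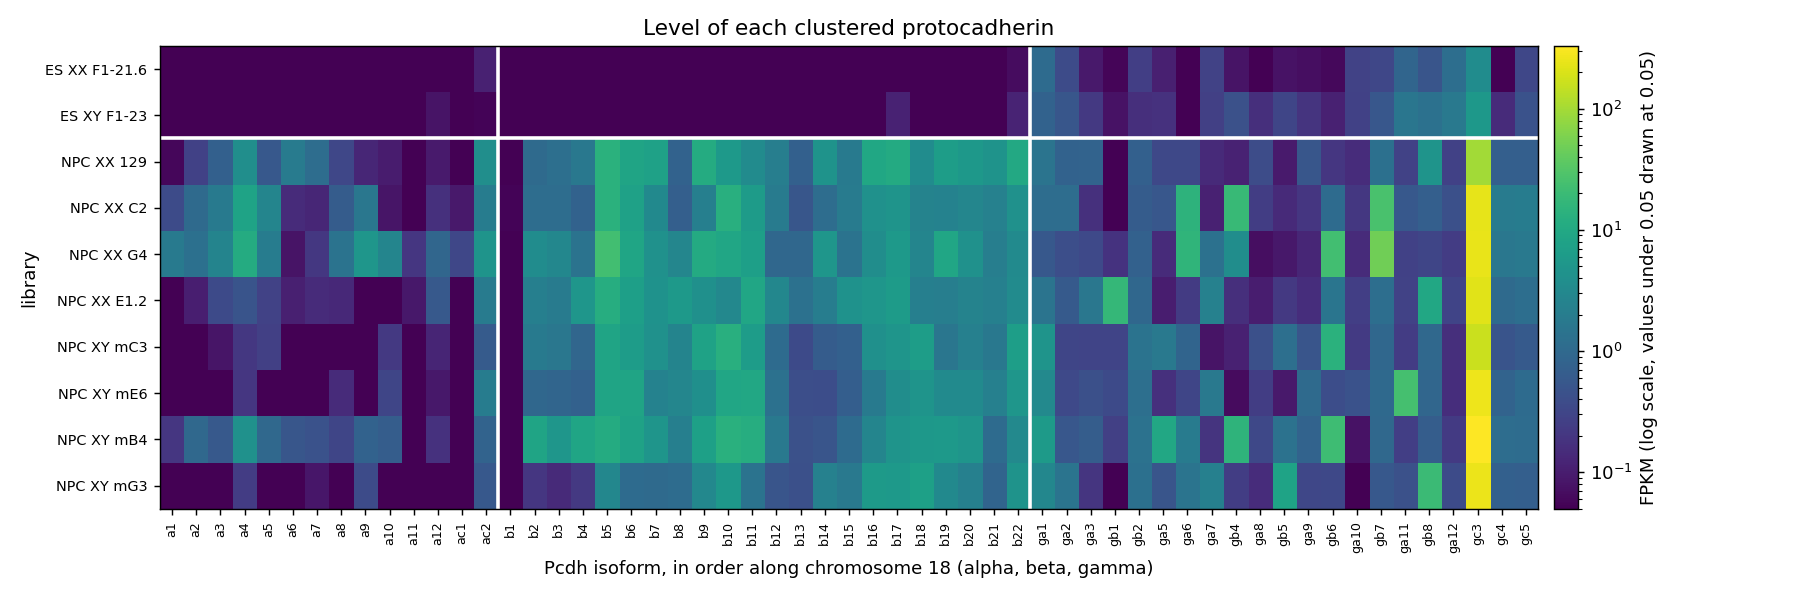
FPKM of each isoform (columns, in order along the chromosome, white lines between alpha, beta and gamma) in each library (rows, ES lines above the white line), on a log colour scale. Beta is dark in both ES lines and filled in all 8 NPC clones except Pcdhb1, Pcdhgc3 is the brightest column, and the bright alpha and gamma a and b cells differ from clone to clone.

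As deposited, all 57 members tested were higher in NPC than in ES (edgeR quasi-likelihood test, Benjamini-Hochberg adjusted over all 14561 rows tested), against a background of 33.3% of rows higher and 29.7% lower. The members' median log2 difference was 5.18, and that of all rows 0.11. Since nested rows share counts, those of alpha and gamma are not separate results. By stretches, 32 of 55 members rose and 1 fell (background 33.1% and 29.7%). These were 21 of 21 beta genes, 4 of 13 alpha stretches and 7 of 21 gamma stretches rising, and Pcdhga12 falling. By the prefix of their library names, the XX clones are a library set apart from both ES lines and the XY clones. With the XY clones alone against both ES lines, 32 of 49 members rose by stretches and 1 fell (all rows 4783 and 4408 of 14115). On FPKM, which are not nested, limma called 29 members higher and 1 lower on log2(FPKM + 0.1) (background 33.5% and 31.8%), and 24 and 1 on log2(FPKM + 1) (31.2% and 31.9%). Every beta gene except Pcdhb1 was above both ES lines in all 8 clones by FPKM, as were 4 of 12 alpha isoforms numbered 1 to 12, 4 of 18 gamma a and b isoforms and 3 of 3 gamma c isoforms (31.9% of all rows). The table lists only rows with at least 11 counts in some NPC clone, so rows seen in ES cells alone could not appear. Fewer than that in both ES lines was found for 18 members, all beta genes, of which 17 are among the 21 tested. These 17 are in the table only through NPC, so their direction was fixed by the selection and supports nothing. The 4 other beta genes tested, Pcdhb2, Pcdhb3, Pcdhb17 and Pcdhb22, rose as well.

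Pcdhgc3, a C-type isoform, carried over 98% of the gamma c FPKM in each NPC clone. Its level was 3.61 and 5.39 FPKM in the ES lines and 98.1 (XX clone 129), 240, 249, 224, 161, 263, 327 (mB4) and 256 FPKM in the NPC clones. The groups do not overlap. By its stretch it rose by a log2 of 6.15 ± 0.56 (SE, edgeR adjusted p = 2.037e-05). Of the beta genes, 9 tested had no count in either ES line. For Pcdhb10 the NPC level was at least 893-fold higher, and for Pcdhb6 at least 875-fold higher, against a floor of 3 counts over both ES libraries. The median log2 difference of the 21 beta genes was 7.74 with these 9 genes held at their floor. Pcdhb10 and Pcdhb6 are among the 17 of these 21 genes that are in the table only through NPC. Their fold values and this median are therefore no support for a rise. Pcdhb1, the first beta gene, was almost unread, with 19 counts in C2, 3 in mB4 and none in the other libraries.

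Pcdhga12, the last gamma a isoform, went the other way. Its FPKM was 1.19 and 1.76 in the ES lines, where it was the highest gamma a or b isoform, and 0.160 (mE6) to 0.429 (C2) in NPC. The groups do not overlap, and it was the only member with every clone below both ES lines (30.7% of all rows). Its stretch fell by 1.28 on the log2 scale (SE 0.29, edgeR adjusted p = 0.003792). On log2(FPKM + 0.1) the difference was -2.10 ± 0.31 (limma adjusted p = 0.0002755). Its deposited, nested row is higher in NPC, since that row holds the counts of Pcdhgc3 and the constant exons. Pcdhga11, its neighbour, had 0.893 and 1.57 FPKM in the ES lines and lay below both in 7 of 8 clones, at 0.238 to 0.572 FPKM, with 24.2 FPKM in mE6. That difference did not pass (adjusted p = 0.8631 in edgeR on stretches).

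Each NPC clone had its own short set of gamma a and b isoforms. The leading isoform was Pcdhgb7 in C2 (26.4 FPKM) and G4 (48.2 FPKM), Pcdhgb6 in mC3 (13.7 FPKM) and mB4 (21.7 FPKM), Pcdhgb8 in mG3 (19.8 FPKM) and XX clone 129 (4.74 FPKM), Pcdhgb1 in E1.2 (17.6 FPKM) and Pcdhga11 in mE6 (24.2 FPKM). It made up 34.9% (mB4) to 66.8% (mE6) of the gamma a and b FPKM of its clone. Pcdhgb8 is a transcribed pseudogene in RefSeq. Between 0 (XX clone 129) and 4 (mB4) of the 18 isoforms reached 5 FPKM in a clone. In ES cells none did, and the leading isoform held 20.5% and 19.7%.

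The same isoform could be among the highest in one clone and near nothing in the next. Pcdhgb1 was at 17.6 FPKM in E1.2 and at 0.0270 to 0.365 FPKM in the other 7 clones. Pcdhga11 stood 24.2 FPKM in mE6 against a highest value of 0.572 FPKM elsewhere. Pcdhgb7 read 1.28 FPKM in XX clone 129, 26.4 in C2, 48.2 in G4, 1.19 in E1.2, 0.938 in mC3, 0.995 in mE6, 0.978 in mB4 and 0.560 in mG3. Pcdhgb6 was high in 3 clones, G4 (23.2 FPKM), mC3 and mB4, and at or below 1.51 FPKM in the other 5. Pcdhgb8 read 4.74 FPKM in XX clone 129, 0.708 in C2, 0.312 in G4, 9.61 in E1.2, 0.975 in mC3, 0.898 in mE6, 0.680 in mB4 and 19.8 in mG3, which leaves 3 clones above 1 FPKM. Pcdhga6 read 14.5 FPKM in C2 and 15.7 in G4, and 0.339 in XX clone 129, 0.235 in E1.2, 0.846 in mC3, 0.316 in mE6, 1.92 in mB4 and 1.48 in mG3. In the median gamma a and b isoform the highest clone exceeded the lowest 43.6-fold, with values under 0.1 FPKM set to 0.1, against 1.88-fold for the median row of the table. The same figure was 19.0 for alpha isoforms 1 to 12, 5.80 for beta and 3.37 for gamma c. With 1 library a clone in the table, error within a clone could not be measured.

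Among all members, 25 of 57 spanned at least 10-fold between clones in FPKM with that floor (background 7.94%). By CPM of stretches 29 of 55 did (16.1%), and by CPM of the nested rows 18 of 57 (16.0%). The last count fell to 8 without G4, the clone with the most alpha and the most gamma a and b RNA.

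Read by stretches, the leading gamma a or b isoform came from 1 allele in 7 of 8 clones, all but XX clone 129. Monoallelic here means at least 20 counts, of which 85% or more came from 1 allele, with an adjusted p under 0.05 in an exact binomial test of a 129 share of 50%. Biallelic means that neither allele exceeded 70%. The counts are not tied to single molecules, so tests and intervals cover counting error only. All 16 pairs of a gamma a or b isoform and a clone at 5 FPKM or more were monoallelic, 8 for 129 and 8 for Cast. They cover 10 isoforms in 7 clones and rest on 264 to 22652 counts each. The 5 FPKM limit was chosen after the values were seen. With a limit of 10 FPKM the count was 12 of 12, with 3 FPKM 18 of 20, and with 1 FPKM 30 of 44. Below that, 2 of 24 pairs at 0.5 to 1 FPKM and 11 of 57 under 0.5 FPKM were monoallelic. Asking for 95% from 1 allele left 10 of the 16. At these FPKM limits the share over all rows was not computed, so these counts have no matching background. Over all pairs with at least 20 counts it was 6.87%.

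**Figure D2:**
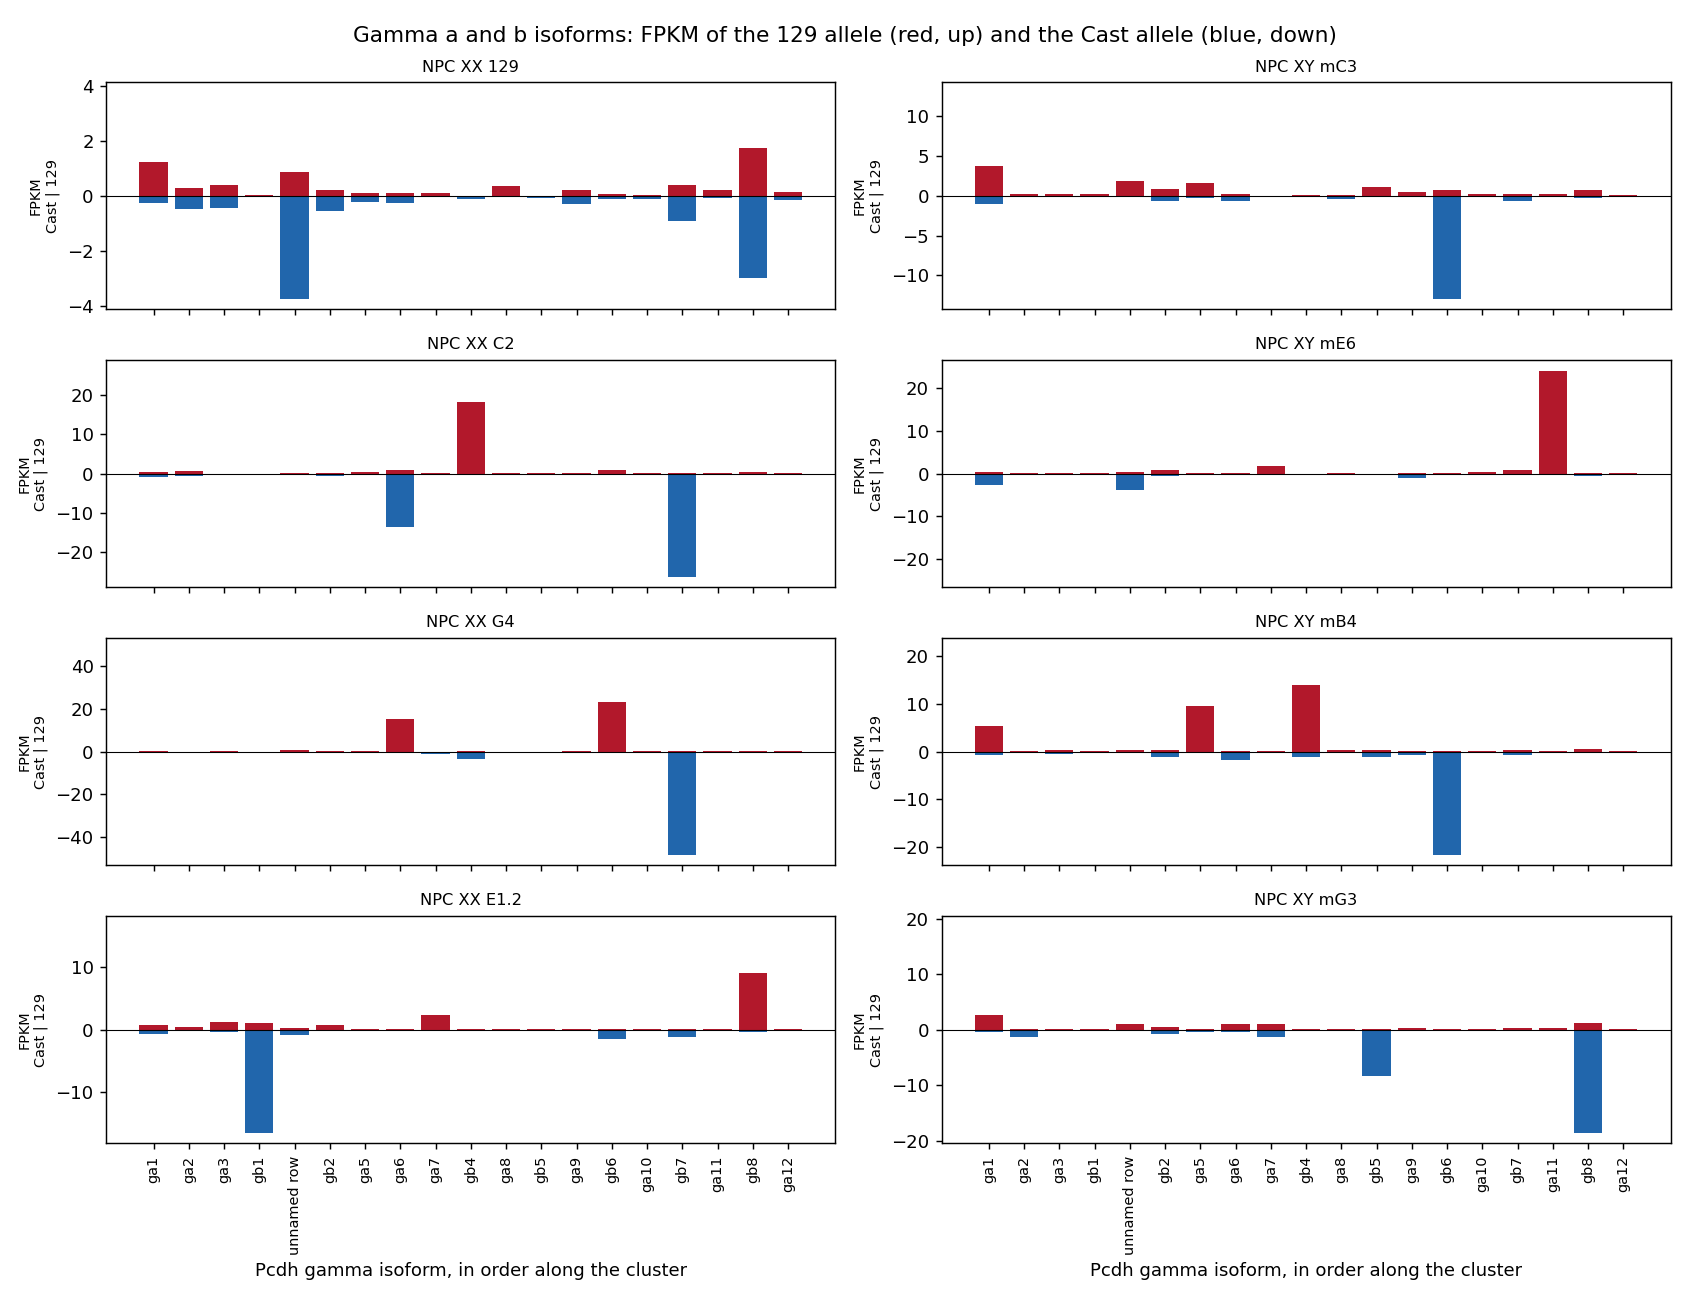
FPKM of each gamma a and b isoform split by the 129 share of its stretch, 129 upwards in red and Cast downwards in blue, in each NPC clone (panels, with their own vertical scales, isoforms in order along the cluster, the unnamed row included). Bars of 5 FPKM or more stand almost wholly on 1 side of the line, Pcdhgb8 in XX clone 129 (4.74 FPKM) stands on both, and in C2, G4, E1.2 and mB4 the tall red and blue bars are different isoforms.

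In 4 clones the 2 chromosomes carried different leading isoforms. In C2, Pcdhgb4 (18.4 FPKM) was 98.8% from 129, while Pcdhga6 (14.5 FPKM) and Pcdhgb7 were 6.21% and 0.722% from 129. In G4, Pcdhga6 (15.7 FPKM) and Pcdhgb6 were 96.7% and 99.3% from 129, and Pcdhgb7 was 0.225% from 129 (exact 95% interval 0.168% to 0.296%). In E1.2, Pcdhgb8 (9.61 FPKM) was 95.2% and Pcdhgb1 5.96% from 129. In mB4, Pcdhga1 (5.96 FPKM), Pcdhga5 (9.70 FPKM) and Pcdhgb4 (15.1 FPKM) were 88.6%, 98.3% and 92.4% from 129, and Pcdhgb6 was 0.680% from 129.

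The other clones had leading isoforms of 1 allele only at this level. In mE6, Pcdhga11 was 99.7% from 129. In mC3, Pcdhgb6 was 5.53% from 129, and in mG3, Pcdhgb8 was 6.20% and Pcdhgb5 (8.35 FPKM) 0.575% from 129. XX clone 129 had no isoform at 5 FPKM, and its leading Pcdhgb8 was 36.8% from 129. The unnamed row reached 4.61 FPKM there (18.6% from 129) and 4.31 FPKM in mE6 (8.77% from 129).

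Which allele an isoform used was not fixed. Pcdhga6 was Cast in C2 and 129 in G4, and Pcdhgb8 was 129 in E1.2 and Cast in mG3. Pcdhgb6 was testable in 6 clones and monoallelic in all of them, for 129 in C2 and G4 and for Cast in E1.2, mC3, mE6 and mB4. Pcdhgb7 was monoallelic in 3 clones, C2, G4 and E1.2, for Cast each time. Pcdhgb4 was testable in 3 clones, with 129 in C2 and mB4 and Cast in G4.

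Over all gamma a and b stretches, 43 of 125 testable pairs in NPC were monoallelic, 22 for 129 and 21 for Cast, and 42 were biallelic. Per clone this was 1 of 14 in XX clone 129 and 5 to 7 of 14 to 17 in each of the others. Among all members 89 of 374 pairs were monoallelic (background 6.87%) and 183 biallelic (85.3%). At 100 counts or more 64 of 278 were monoallelic (4.12%). In ES cells 3 of 25 pairs were monoallelic (5.52%), each at 24 to 45 counts: Pcdhga9 and Pcdhgb8 in F1-21.6 and Pcdhga8 in F1-23. As deposited, the nested rows gave 20 of 456 monoallelic pairs in NPC (6.79%), all of them beta genes, and 363 biallelic ones (85.4%). In ES cells the nested rows gave 0 of 72 monoallelic (5.49%).

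**Figure D3:**
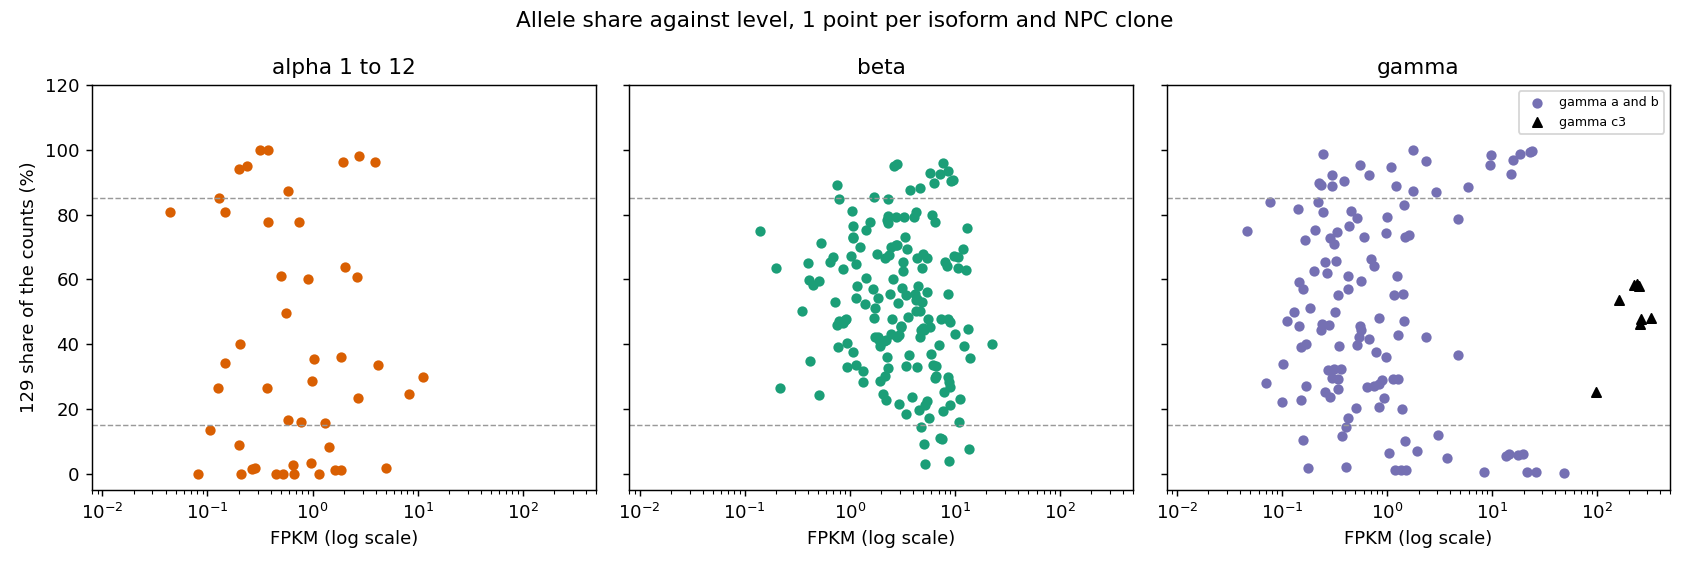
129 share of the counts (vertical, percent) against FPKM (horizontal, log scale), 1 point per isoform and NPC clone with at least 20 counts, for alpha 1 to 12, beta and gamma. Dashed lines mark 15% and 85%, and at 5 FPKM or more every gamma a and b point lies outside them while every Pcdhgc3 point, at 98.1 to 327 FPKM, lies between them.

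Alpha isoforms were the least expressed, and their summed level differed widely between clones. Alpha 1 to 12 together had 9.36 FPKM in XX clone 129, 17.1 in C2, 29.7 in G4, 2.39 in E1.2, 1.02 in mC3, 0.820 in mE6, 9.91 in mB4 and 0.790 in mG3. XX clone 129, C2, G4 and mB4 stand above the rest, and the ES lines had 0.0445 and 0.152 FPKM. Pcdha4 led in XX clone 129 (3.92 FPKM), C2 (8.29), G4 (11.2) and mB4 (4.21). In the low clones the leading isoform was Pcdha12 in E1.2 (0.585 FPKM), Pcdha5 in mC3 (0.267), Pcdha10 in mE6 (0.315) and Pcdha9 in mG3 (0.375). By stretches Pcdha3, Pcdha4, Pcdha8 and Pcdhac2 rose over ES, 4 of 13 tested, which is near the 33.1% of all rows. Pcdha8 overlapped the ES lines, with 0 counts in mG3. Pcdha4 had 0 counts in both ES lines and was at least 488-fold higher in NPC.

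Monoallelic calls were made for 25 of 48 testable pairs of an alpha 1 to 12 isoform and a clone (background 6.87%), 9 for 129 and 16 for Cast. Pcdha4 was 96.2% from 129 in XX clone 129, 24.7% in C2, 29.8% in G4, 61.1% in E1.2, 0 of 38 counts in mC3, 93.9% in mE6, 33.7% in mB4 and 38 of 40 counts in mG3. It was thus from 1 allele in 4 clones and mixed in C2 and G4, where it was highest. In XX clone 129, Pcdha6 (1.94 FPKM) was 96.2% from 129 and Pcdha7 (1.15 FPKM) had 0 of 315 counts from 129, where the exact 95% interval ends at 1.16%. In G4, Pcdha9 (5.04 FPKM) was 1.85% and Pcdha10 (2.78 FPKM) 98.0% from 129. Of the 3 alpha pairs at 5 FPKM or more, 1 was monoallelic, and of the 14 at 1 to 5 FPKM, 7 were. The share over all rows at these limits was not computed. Pooled over alpha 1 to 12 stretches, the 129 share was 5.26% in mC3, 19.5% in mB4, 26.2% in C2, 36.0% in G4, 39.2% in E1.2, 69.0% in XX clone 129, 71.7% in mE6 and 91.9% in mG3.

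Beta genes were expressed broadly. Of the 22, 15 (mE6 and mG3) to 21 (E1.2) had at least 1 FPKM in a clone. Pcdhb5 led in the 4 XX clones at 13.53, 13.9, 22.7 and 12.2 FPKM, Pcdhb10 in mC3 (12.9) and mB4 (13.3), Pcdhb11 in mE6 (9.89) and Pcdhb18 in mG3 (7.49). Pcdhb10 was at 5.71, 12.8, 9.10 and 3.08 FPKM in XX clone 129, C2, G4 and E1.2 and at 12.9, 8.98, 13.3 and 5.39 FPKM in mC3, mE6, mB4 and mG3. Pcdhb11 was at 3.47, 6.35, 7.25 and 9.22 FPKM and at 6.46, 9.89, 11.97 and 1.43 FPKM in the same order. All 8 clones thus expressed both genes above 1 FPKM. The leading gene held 11.7% to 20.04% of the beta FPKM of its clone. mG3 was the lowest clone for beta, and its levels of Pcdhb2, Pcdhb3 and Pcdhb4 were 0.2005, 0.141 and 0.216 FPKM against 8.63, 5.15 and 8.86 FPKM in mB4.

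Allele use in beta was a patchwork. In NPC, 20 of 168 testable pairs were monoallelic (background 6.79%), 13 for 129 and 7 for Cast, and 103 were biallelic (85.4%). Pcdhb6 was 93.4% from 129 in XX clone 129, 95.9% in C2, 28.3% in G4, 11.1% in E1.2, 29.6% in mC3, 64.1% in mE6, 25.3% in mB4 and 73.2% in mG3. Both alleles of this gene were thus the major one in some clone, at a level of 1.07 FPKM in mG3 and 6.52 to 8.87 FPKM in the others. Pcdhb5 was 7.75% from 129 in XX clone 129 and 23.2% to 55.6% in the other clones. Pcdhb4 was 3.23% from 129 in E1.2 and 4.14% in mB4, its 2 highest clones, and 26.7% to 52.3% in the rest. Pcdhb14 was 88.4% from 129 in XX clone 129 (4.64 FPKM) and 9.12% in G4 (5.14 FPKM), its 2 highest clones as well, and 24.6% to 65.3% in the rest.

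**Figure D4:**
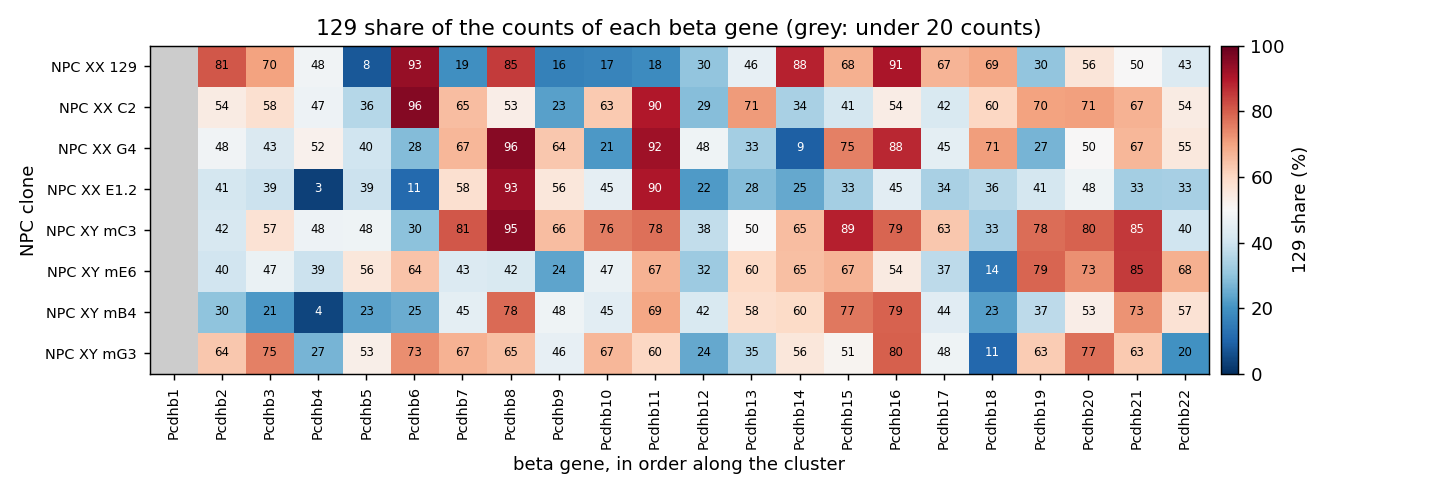
129 share of the counts (percent, red 129, blue Cast) of each beta gene (columns, in order along the cluster) in each NPC clone (rows), grey where there were under 20 counts. Dark red runs over neighbouring rows in Pcdhb6, Pcdhb8 and Pcdhb11, most other dark cells stand singly, and Pcdhb6, Pcdhb14 and Pcdhb11 pass from one colour to the other between clones.

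Some beta genes leaned to 1 side in every monoallelic call. Pcdhb11 was 89.9%, 92.4% and 90.5% from 129 in C2, G4 and E1.2, with 18.5% in XX clone 129 and 60.4% to 77.6% in the XY clones. Pcdhb8 was 95.5%, 92.7% and 94.98% from 129 in G4, E1.2 and mC3, and 84.9%, 53.2%, 42.4%, 78.3% and 64.9% in XX clone 129, C2, mE6, mB4 and mG3. Pcdhb16 was 90.8% and 87.7% in XX clone 129 and G4. Pcdhb18 was 14.4% and 10.9% from 129 in mE6 and mG3 and 22.6% to 70.7% in the other clones. At 5 FPKM or more, 13 of 55 beta pairs were monoallelic, at 1 to 5 FPKM 6 of 88, with no share over all rows computed at these limits.

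Pooled over the array, both beta alleles were in use in each clone. The 129 share of the summed beta counts ran from 41.6% (mB4) and 43.0% (XX clone 129) to 62.8% (mC3). The allele levels were 98.8 to 241 CPM for 129 and 87.0 to 275 CPM for Cast.

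Pcdhgc3, Pcdhgc4 and the constant exons were read from both alleles. Pcdhgc3 was 58.6%, 57.9% and 58.3% from 129 in C2, G4 and E1.2, 53.7% in mC3, 48.0% in mE6, 48.2% in mB4, 46.3% in mG3 and 59.3% and 60.2% in the ES lines. XX clone 129 stood apart at 25.2%. Pcdhgc4 was biallelic in 7 of 7 testable clones. The stretch of Pcdhgc5, which also holds the constant exons of every gamma isoform, was 31.4% from 129 in XX clone 129, 49.7% to 52.3% in the other XX clones, 41.5% to 50.2% in the XY clones and 53.7% and 49.8% in the ES lines. In XX clone 129 its 129 allele gave 137 CPM, against 299 to 718 CPM in the other 7 clones, and its Cast allele 300 CPM, against 296 to 703 CPM. The 129 allele was thus below all other clones and the Cast allele within their range. The genes flanking the cluster were more even there, with 129 shares of 47.9% for Hars2, 58.3% for Zmat2, 53.0% for Diap1 and 54.0% for Hdac3.

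The stretch of Pcdhac2 with the alpha constant exons was biallelic in 6 of 8 clones. Its 129 share was 25.5% in C2 and 28.3% in mB4, clones in which the alpha 1 to 12 stretches pooled to 26.2% and 19.5%. The same 2 shares were 44.1% and 69.0% in XX clone 129, 39.8% and 36.0% in G4, and 49.2% and 39.2% in E1.2. They were 45.2% and 5.26% in mC3, 56.1% and 71.7% in mE6, and 49.0% and 91.9% in mG3. In XX ES cells the share of the Pcdhac2 stretch was 24.6% of 138 counts and in XY ES cells 52.8% of 89. Pcdhac2 had 3.81, 1.99, 4.74 and 1.96 FPKM in the XX clones and 0.634, 1.99, 0.818 and 0.560 FPKM in the XY clones. Its variable exon and the constant exons could not be separated. Pcdhac1, the other alpha C-type isoform, was at most 0.326 FPKM (G4) and testable in 2 clones. It was 85.1% from 129 of 74 counts in G4, a monoallelic call, and 80.8% of 26 counts in C2, and biallelic in neither.

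**Figure D5:**
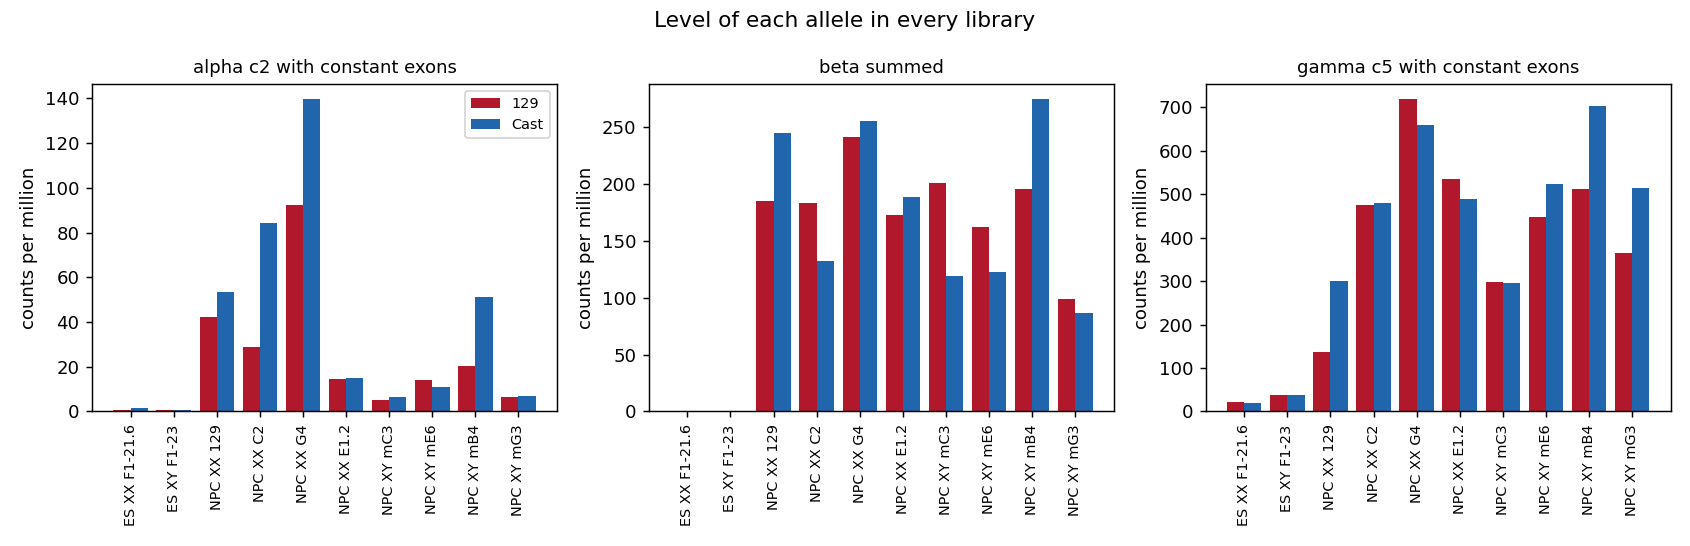
CPM of the 129 (red) and Cast (blue) allele in each library for the alpha constant exons with Pcdhac2, the summed beta genes and the gamma constant exons with Pcdhgc5. Bars start at 0, each library is 1 pair of bars, and the red bar of XX clone 129 in the gamma panel (137 CPM) is the lowest of the NPC clones.

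Allele shares differed between clones for most members that could be tested. They were compared in a quasi-likelihood test of equal 129 shares over the clones, with an overdispersion that follows depth. In it 38 of 43 members testable by stretches passed an adjusted p of 0.05 (background 19.3%). Of the alpha isoforms only Pcdha3, Pcdha4, Pcdha5 and Pcdhac2 were testable by stretches. As deposited 56 of 57 passed (19.5%), but the nested rows of alpha and gamma share counts. By stretches the smallest adjusted p was that of Pcdhgb7 (9.372e-277), whose share ran from 0.225% to 79.4%, followed by Pcdhgb6 (7.418e-171), from 0.680% to 99.3%. The 5 that did not pass were Pcdhb12, Pcdhga3, Pcdhgb2, Pcdhga12 and Pcdhgc4. For Pcdhb12 the share was 21.6% to 47.8% (adjusted p = 0.8236), on the Cast side in all 8 clones. Pcdhgc3 passed (adjusted p = 1.262e-14), with XX clone 129 far below the rest.

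No member passed the test of XX against XY NPC clones. As deposited it was 0 of 57 in either direction in edgeR (background 0.876% higher and 0.412% lower), with 19 at an unadjusted p under 0.05, and by stretches 0 of 53 (1.02% and 0.464%), with 13. Line, sex chromosomes and library set coincide in these clones and cannot be told apart. The 14 nested alpha rows had a median log2 difference of 1.96 towards XX. DESeq2 called 16 members higher, those 14, which share counts, and Pcdhb12 and Pcdhb13, and 1 lower, Pcdhb18, against 7.94% and 5.69% of all rows it tested. Pcdhb18 was at 13.48, 11.8, 12.4 and 9.57 CPM in the XX clones and 24.9, 19.4, 18.5 and 32.0 CPM in the XY clones. The groups do not overlap, with a log2 difference of -1.001 ± 0.203 (SE, edgeR adjusted p = 0.0504 on stretches). On log2(FPKM + 0.1), limma called Pcdhb18 (-1.09 ± 0.20, adjusted p = 0.04006) and Pcdhga1 (-1.78 ± 0.36, adjusted p = 0.04658) lower in XX and none higher (background 1.92% and 0.953%). On log2(FPKM + 1) these 2 and Pcdhgb2 were lower (2.18%) and none higher (0.96%). Pcdhga1 was at 1.47, 1.15, 0.569 and 1.47 FPKM in the XX clones and 4.78, 3.09, 5.96 and 2.94 FPKM in the XY clones, which do not overlap either. The share of all rows without overlap between XX and XY clones was not computed. The non-overlap of Pcdhb18 and Pcdhga1 therefore has no background beside it.

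Whether the change from ES to NPC differed between the 2 lines was tested by an interaction term, with 1 ES library a line. It was called for 0 of 57 members (background 0.0824% and 0.0206%), with 5 at an unadjusted p under 0.05 in edgeR, and for 0 in DESeq2 (2.62% and 1.41%), which had 4. By stretches it was 0 of 55 (0.199% and 0.0756%), with 7. Without a count in either ES line, 9 of the 57 rows and 19 of the 55 stretches hold no ES level to compare. For these the outcome was fixed and is no result. By the prefix of their library names, the XX NPC clones are 1 library set, and both ES lines and the XY clones another. The interaction and the library set therefore cannot be told apart.

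Of the genes next to the cluster and between its arrays, Taf7, a subunit of the general transcription factor TFIID that lies between beta and gamma, was lower in NPC, at 132 and 135 CPM in ES and 10.9 to 20.04 CPM in NPC (log2 -3.02 ± 0.17, edgeR adjusted p = 1.873e-06). Diap1, a formin next to the gamma array, was also lower (log2 -2.38 ± 0.18, adjusted p = 8.118e-06), as was Zmat2, a zinc finger gene before the alpha array (-0.35 ± 0.13, adjusted p = 0.04096). Hars2, a histidyl-tRNA synthetase gene, did not pass (-0.32 ± 0.14, adjusted p = 0.06793). Hdac3, a histone deacetylase beyond it, was higher (0.48 ± 0.10, adjusted p = 0.003131). Of the 5 neighbours tested 3 were thus lower and 1 higher (background 29.7% and 33.3%).

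Of 22 listed regulators of the cluster in the table (CTCF, cohesin, DNA methylation and silencing factors), 4 were higher and 10 lower in NPC (background 33.3% and 29.7%), with a median log2 difference of -0.37 against 0.11 for all rows. Dnmt3b, a de novo DNA methyltransferase, was at 41.8 and 113 FPKM in ES and 1.08 to 1.91 FPKM in NPC. Rest, a repressor of neuronal genes, was at 60.01 and 67.1 FPKM in ES and 7.46 to 11.5 FPKM in NPC. Smc3, a cohesin subunit, was lower by a smaller amount (log2 -1.16 ± 0.15, edgeR adjusted p = 0.0001434). Dnmt3a, another de novo DNA methyltransferase, and Pds5b, a cohesin cofactor, were higher, by 1.07 and 0.72 on the log2 scale of counts. For Dnmt3a the FPKM overlapped, with 17.6 and 38.6 in the ES lines and 19.6 to 28.1 in NPC. None of the 22 differed between XX and XY clones (edgeR, adjusted p of 0.05). Ctcf itself did not pass (log2 -0.44 ± 0.19, adjusted p = 0.06695).

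Of 22 listed signalling and adhesion partners of these proteins, 11 were higher and 6 lower (background 33.3% and 29.7%, median log2 difference 0.36). Fyn, a Src-family kinase, was at 10.8 and 12.2 FPKM in ES and 116 to 209 FPKM in NPC, and Marcks, an actin-binding membrane protein, at 25.4 and 31.5 against 193 to 316 FPKM. Nlgn1, a synaptic adhesion protein, had no ES count and 1.52 to 7.30 FPKM in NPC. The kinase Ptk2b was lower, at 4.99 and 8.89 FPKM in ES and 0.0217 to 0.128 FPKM in NPC. Ret, a receptor kinase, and Cyfip2, a subunit of the WAVE complex, were lower by a log2 of -4.65 ± 1.31 and -1.44 ± 0.39. Of 9 non-clustered delta protocadherins, which lie outside the arrays, 8 were higher in NPC and 0 lower (background 33.3% and 29.7%, median log2 difference 6.26, also with the 2 genes without ES counts, Pcdh10 and Pcdh11x, at their floor). Both are counted among the 8 and in the median. Like Nlgn1, they are in the table only through NPC, so their direction was fixed by the selection and supports nothing. Pcdh9 was at 0.0340 and 0.0351 FPKM in ES and 6.65 to 24.1 FPKM in NPC. Pcdh19 was the one that did not pass (adjusted p = 0.09171).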

How the data were processed

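The assay was RNA-seq of polyadenylated RNA with paired reads of 100 bases. For each row and library the authors deposited counts (whole numbers, read here as allele-informative observations), the fraction of them from 129 (shown in percent) and FPKM. Per the submitters' processing notes, the tools were SAMtools, Cufflinks 1.3.0 and TopHat 1.4.0 and the build mm9, and how counts were assigned to rows is not stated. Deposited starts are counted from 0: start plus 1 is an annotated exon start for 5539 of 14899 rows, against 467 for the start itself. Repeat libraries of C2 and mC3 were not analysed here. Nothing states separate cultures beyond the clones, so p-values of the level tests measure mainly the spread between clones. With 1 library for each ES line, the spread among ES cultures was not measured. The p-values of allele calls cover counting error only.

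Levels were tested with edgeR 4.0.16 (R 4.3.3, TMM factors, filterByExpr, quasi-likelihood, line as covariate for NPC against ES), with DESeq2 1.42.0 and limma 3.58.1 on log2(FPKM + 1) and log2(FPKM + 0.1), with no low-value filter, as alternatives. A log2 difference on FPKM plus a constant understates changes of low genes. Allele calls used exact binomial tests (scipy 1.17.1). The heterogeneity test took its overdispersion from 20 depth bins, joined by lines after a stepwise version called too many rows in simulated data. It ran on rows with 20 counts in at least 6 clones. The tests were checked on simulated data. The nesting was noticed in the files, so the stretch counts were added after seeing the data. In 9 of 10 libraries the Pcdha4-g row equals the sum of the alpha, beta and gamma parts to within 15 counts. In mG3 the parts exceed it by 17504 counts of 111274, so this row is not described further.

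Members and lists were chosen with earlier results of these data known. Every member may be named. The rule gave values in every library to members that led their array in a clone, were monoallelic in a clone, had heterogeneous shares or passed the XX against XY test. Since that is nearly every member, only some of these are given in every library, chosen after their values were seen, and the others by ranges or in the clones named. Of the lists, up to 3 genes a direction were named by size of change, as were the neighbours of the cluster. The values of 1 listed gene are not reported here. Markers of astrocytes (3 of 5 in the table higher in NPC, 0 lower), oligodendrocytes (1 of 3 higher, 1 lower) and ES cells (3 of 3 lower) were also read. The astrocyte markers Aqp4 and S100b had no ES count, so their direction was fixed by the selection of rows.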

Additional observations from a re-analysis of the deposited data

Results flagged for a closer look

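In 3 values, 1 of the 4 clones of a line stood apart from the other 3 by more than the 95% critical gap. Chance flags about 1 in 20 such groups. The number of groups looked at is not given here, so the 3 flags are not weighed against chance. Of these flags, the allele shares are both gamma values of the same clone and are not separate results. The 129 share of Pcdhgc3 was 25.22% in XX clone 129 and 57.95% to 58.63% in the other XX clones. The 129 share of the Pcdhgc5 stretch with the gamma constant exons was 31.35% in the same clone and 49.66% to 52.27% in the others. The summed FPKM of alpha 1 to 12 was 9.914 in mB4 and 0.7899 to 1.022 in the other XY clones.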

How the results depend on the processing

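No paired analysis was possible because the clone numbers pair neither XX with XY clones nor NPC with ES libraries. Members higher in NPC came to 24 with limma on log2(FPKM + 1), 29 on log2(FPKM + 0.1), and 32 by stretches with all NPC clones or with the XY clones alone, and in each of these 1 was lower. On log2(FPKM + 1) and log2(FPKM + 0.1) the change was reversed for Pcdhga10 (-0.11, -0.47), Pcdhga11 (-0.20, -0.87) and Pcdhga12 (-0.956, -2.10). For Pcdhga12 the stretch gave -1.28 as well, and for the other two the cause was not tested. Without the XX ES line 51 were higher, without the XY ES line 56, and without any NPC clone 57. Members called between XX and XY clones were 16 higher and 1 lower with DESeq2 (of all its rows 7.94% and 5.69%). With limma 2 were lower on log2(FPKM + 0.1) (1.92% of all rows) and 3 on log2(FPKM + 1) (2.18%). By stretches without XX clone 129, 1 was higher (Pcdhgb7), against 326 of 13838 rows. Monoallelic calls in NPC came to 4 at 95% and 55 at 75% from 1 allele, and to 89 by stretches (background 6.87%). Without XX clone 129, C2, G4, E1.2, mC3, mE6, mB4 or mG3 the stretches gave 80, 79, 73, 76, 76, 81, 77 and 81. In ES monoallelic calls came to 14 at 75% and 3 by stretches (5.52%). Biallelic calls in NPC came to 183 by stretches (85.3%). Members spanning 10-fold in CPM came to 29 by stretches (16.1%), 31 at 4-fold, and 8 (without G4) to 18 when 1 clone was left out. For the 95%, 75%, 4-fold and FPKM limits and for calls without a clone, the share over all rows was not computed. Those counts therefore have no background beside them. Of gamma a and b isoforms at 5 FPKM or more, 62.5% came at least 95% from 1 allele, and 100% were monoallelic without any single clone. Per member, on the deposited rows alone, in which alpha and gamma rows share counts, the direction and call of the NPC against ES difference held in 901 of 969 repeats, 62 were no longer past the threshold and 6 reversed. Counts under 20 limit the alpha isoforms and ES cells, where 25 pairs could be called.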
